A study of Homo sapiens with 2 samples.

Results

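Translation initiation factors are the proteins that bring the initiator methionyl-tRNA, the small ribosomal subunit and the messenger RNA together and place the ribosome on the start codon. The genes described here are the protein-coding genes whose symbols start with EIF. The subunit genes EIF3H, EIF3F and EIF2S1, the eIF2 kinases EIF2AK1 to EIF2AK4 and hyphenated read-through symbols were left out by definition. This gave 49 genes of the 58174 gene identifiers measured, and 44 of the 49 averaged at least 1 TPM, the unit of abundance explained below. The genes were chosen by symbol, not by their values, though earlier results of these data were known at that time.

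The cells were PC3, an established human prostate cancer line, transfected with a control small interfering RNA (Control siRNA) or with one against POH1 (POH1 siRNA). POH1, the product of PSMD14, removes ubiquitin chains from substrates at the lid of the proteasome. The sources used here do not give the siRNA sequences, the dose or the time after transfection. Each group held 1 messenger RNA library, so no value has a replicate error and no test between the groups was possible. Every difference below is a difference between 2 libraries. TPM, the deposited unit, corrects reads for the length of the transcript and brings every library to the same total, so levels can be compared between genes, but it keeps no read depth, and the depth is unknown.

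Paired values below give the control library first and the POH1 siRNA library second. The targeted gene PSMD14 was at 50.9 and 35.1 TPM, 1.45-fold lower, which is within the 1.5-fold limit used below. The keratin genes KRT8 (517 and 556 TPM) and KRT18 (455 and 454 TPM) and the epithelial adhesion gene EPCAM (124 and 141 TPM) were abundant in both libraries. KLK3, a gene of differentiated prostate epithelium, was listed at 0 in both libraries. Of markers of other cell types, PTPRC was at 0 and 0.0568 TPM, PECAM1 at 4.90 and 3.88 TPM, and COL1A1, a fibroblast collagen gene, at 30.9 and 47.8 TPM.

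In the cap-dependent pathway, eIF4E binds the messenger RNA cap, eIF4G links it to the helicase eIF4A, and eIF3 connects this assembly to the small ribosomal subunit. The factors eIF1 and eIF1A keep that subunit open for scanning, eIF2 carries the initiator tRNA, eIF2B recharges eIF2 with GTP, and eIF5 and eIF5B complete start codon recognition and joining of the large subunit. The eIF4E-binding proteins are controlled by phosphorylation, which is not seen in RNA data.

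The initiation factor transcripts did not differ as a block. Of the 44 genes, 9 were lower by 1.5-fold or more after POH1 siRNA, none was 1.5-fold higher and 35 lay within 1.5-fold, counted on the log2(TPM + 1) scale. Among the 15008 genes of any kind that averaged at least 1 TPM, 8.88% were 1.5-fold lower and 10.2% were 1.5-fold higher, so the lower share of the family (20.5%) was above that of all genes and the higher share below it. The 9 lower genes were EIF3E, EIF2A, EIF1, EIF3M, EIF5B, EIF2B3, EIF5, EIF4E and EIF2S2, and they came from 6 of the 9 groups of factors described below. The median log2 difference of the 44 genes was 0.03, against 0.12 for all genes, with 25 genes above 0 and 19 below. The summed level of all 49 genes, those under the filter included, hardly moved, at 7471 and 7520 TPM. Within that sum the 9 lower genes together went from 622 to 322 TPM, and the 35 others above the filter from 6848 to 7196 TPM.

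**Figure D1:**
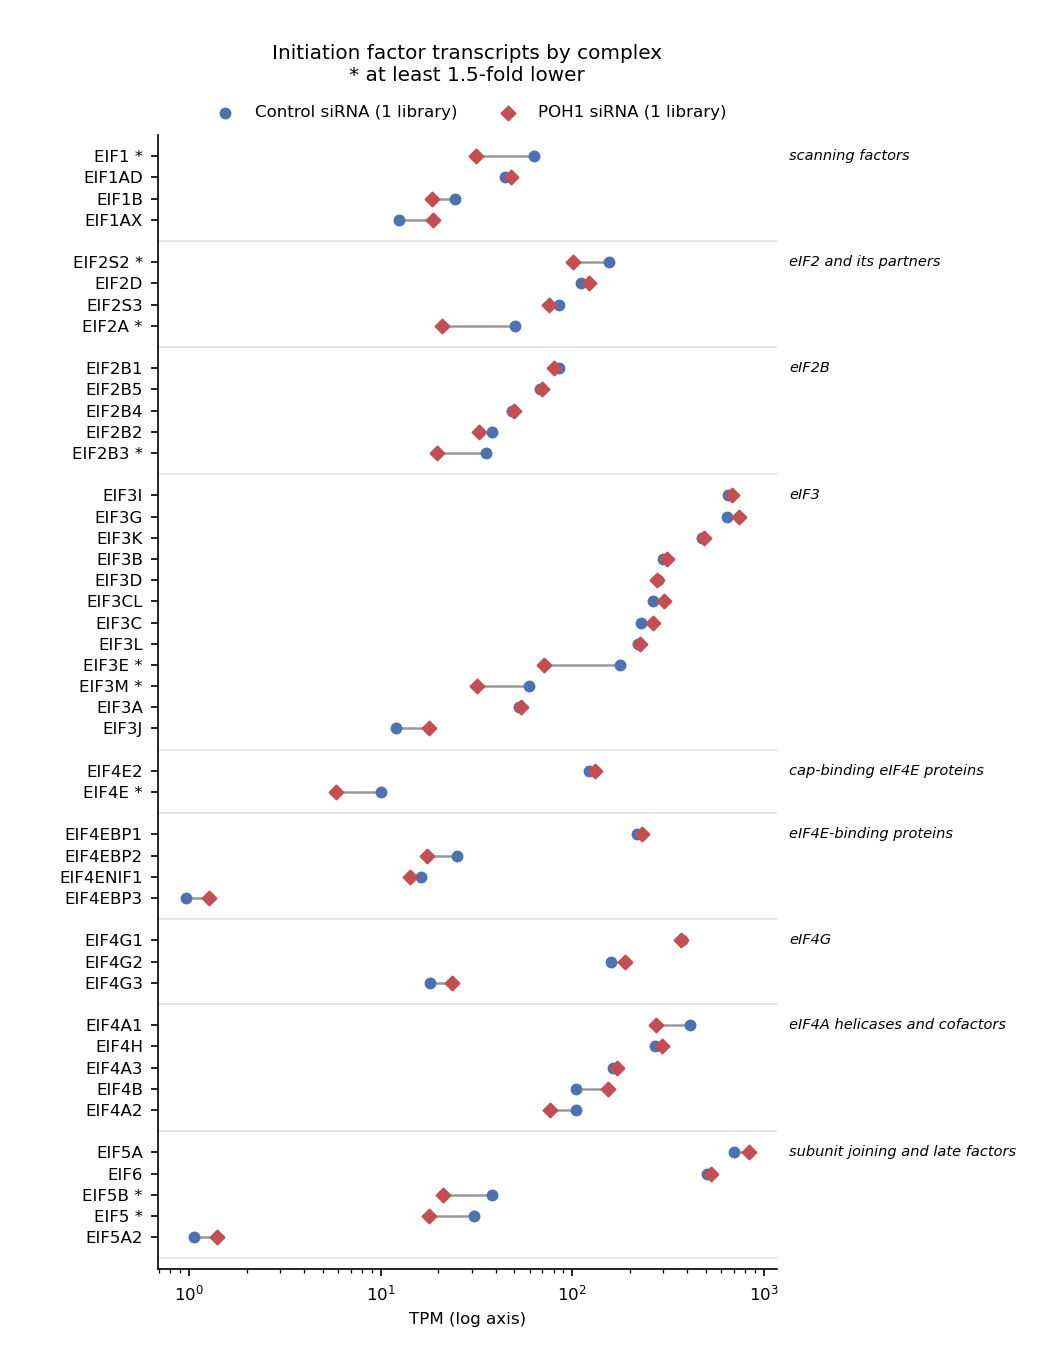
Level of each initiation factor transcript in TPM on a log axis, in the control library (circles) and the POH1 siRNA library (diamonds), 1 library each, for the 44 genes above the filter, grouped by factor. Asterisks mark the 9 genes at least 1.5-fold lower; most other pairs of points nearly coincide, EIF3K (478 and 486 TPM) and EIF4G1 (373 and 370 TPM) among them.

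The lower genes tended to have a low GC content, with EIF1 (48.2%) and EIF2B3 (47.1%) nearest to the median of all genes (51%). Transcripts of the 9 lower genes had a median GC content of 41.2% (38.8% to 48.2%), and those of the 35 others a median of 51.1% (36.9% to 62.0%). Over all genes, too, low-GC transcripts were more often lower in the POH1 siRNA library. Of the 4 family members with up to 40% GC, 2 were 1.5-fold lower, against 20.9% of all genes in that range. Of the 11 members above 40% and up to 45% GC, 4 were lower, against 19.8% of all genes there. Between 45% and 50%, 3 of 8 members were lower, against 10.4% of all genes. Above 50% GC none of 21 members was lower, where 4.91% of all genes up to 55% and 1.82% of those above 55% were.

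For a GC adjustment, the running median of genes of like GC content was subtracted and the median of all genes was added back. Of the 9 genes, 4 then remained at least 1.5-fold lower. These were EIF3E (log2 difference of -0.98 after adjustment), EIF1 (-0.89), EIF2A (-0.86) and EIF2B3 (-0.73). EIF3M (-0.58), EIF5B (-0.52), EIF5 (-0.45), EIF4E (-0.40) and EIF2S2 (-0.38) then lay within 1.5-fold. After the same adjustment 3 genes were 1.5-fold higher, EIF1AX (0.91), EIF3J (0.75) and EIF4B (0.64), so the split of higher to lower genes went from 0 and 9 to 3 and 4. Among all 14983 genes so adjusted 11.1% were 1.5-fold higher and 5.86% lower, so the family's counts then lay nearer to those of all genes than before the adjustment. What part GC content has in each difference was not tested. None of the 9 lower genes shares same-strand exon sequence with another gene above the filter, in GENCODE release 29, whereas 3 of the 44 genes do. On the opposite strand 16 of the 44 overlap exons of such a gene, EIF2A and EIF5B among the lower ones, and reads of such pairs cannot be told apart where strand was not used.

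**Figure D2:**
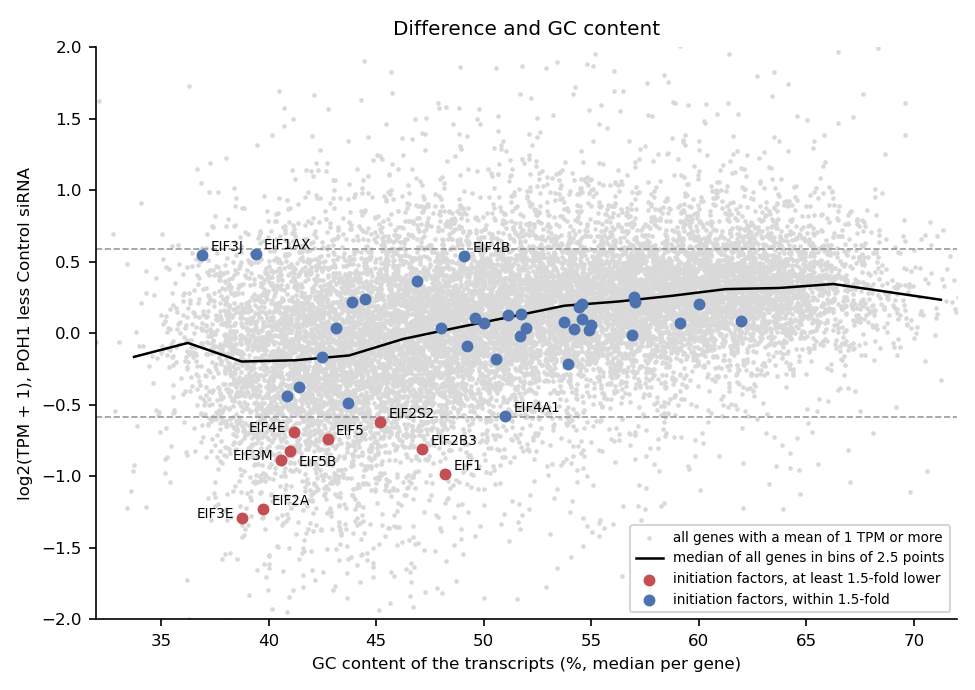
Log2 difference between the libraries (vertical axis, from -2 to 2, with a few genes beyond it) against the GC content of the gene's transcripts in percent, for all genes above the filter (grey) and the initiation factors (red, at least 1.5-fold lower; blue, within 1.5-fold). The black line is the median of all genes in bins of 2.5 percentage points, and all 9 red points lie below 50% GC, while EIF3J and EIF1AX stand high at a similarly low GC content.

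The scanning factors bind the small subunit and guard the choice of start codon. EIF1, whose protein is released when the start codon is met, was at 63.1 and 31.4 TPM, 2.01-fold lower (log2 difference of -0.99). Its paralogue EIF1B was at 24.4 and 18.5 TPM, within 1.5-fold. EIF1AX, which encodes eIF1A, went the other way, from 12.4 to 18.8 TPM, a log2 difference of 0.56 that lies just inside 1.5-fold on the log2(TPM + 1) scale. EIF1 and EIF1AX thus moved apart, though their proteins act side by side on the ribosome. EIF1AD, which carries an eIF1A-like domain, was at 44.6 and 47.9 TPM. EIF1AY, a gene of the Y chromosome, was under the filter.

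eIF2 is a trimer that delivers initiator tRNA with GTP. EIF2S2, its beta subunit, was at 157 and 101 TPM, 1.55-fold lower. EIF2S3, its gamma subunit, which holds the GTP and the tRNA, was at 85.2 and 75.7 TPM. The beta to gamma ratio of the transcripts was 1.84 in the control library and 1.34 in the POH1 siRNA library. EIF2A, a separate single-chain protein that can bring initiator tRNA to non-standard start sites, was 2.41-fold lower, at 50.2 and 20.8 TPM. Only 1.59% of all genes had a difference as low as that of EIF2A, and 3.40% of the 1998 genes within 2.5 percentage points of its GC content. It overlaps SERP1 on the opposite strand over 153 annotated exon bases, and SERP1 was at 76.9 and 130 TPM; the sources used here do not say whether strand was used in quantification. EIF2D, which acts in ribosome recycling and reinitiation, was at 111 and 122 TPM. EIF2S3B, a retrocopy of the gamma gene, was under the filter at 0.0875 and 0.0151 TPM.

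The exchange factor eIF2B has 5 subunits, all of them measured, and 1 of these stood apart. EIF2B3, the gamma subunit of the catalytic part, was 1.80-fold lower, at 35.4 and 19.7 TPM. Its partner there, the catalytic epsilon subunit EIF2B5, was at 67.9 and 69.6 TPM, so that the epsilon to gamma ratio was 1.92 and 3.53. The regulatory subunits EIF2B1 (85.4 and 80.1 TPM), EIF2B2 (38.3 and 32.8 TPM) and EIF2B4 (48.5 and 49.5 TPM) lay within 1.5-fold.

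eIF3, the largest factor, is built on a ring of subunits with PCI and MPN folds to which further subunits attach. Of the 12 eIF3 genes in the family, 2 were 1.5-fold lower and 10 were within 1.5-fold, with a median log2 difference of 0.05, or -0.09 when the libraries were scaled to a median ratio of 1. EIF3E, a PCI subunit of the ring, was 2.47-fold lower, at 177 and 71.7 TPM, the lowest difference of the family (-1.29). EIF3M, another PCI subunit of the ring, was 1.88-fold lower, at 59.7 and 31.7 TPM. Both genes stood apart from the other ring genes in the family, which leaves out EIF3F and EIF3H by definition. EIF3K was at 478 and 486 TPM, EIF3L at 221 and 227 TPM and the scaffold gene EIF3A at 52.8 and 54.2 TPM. EIF3C and EIF3CL are near-identical copies whose reads cannot be assigned with certainty; they were at 229 and 263 TPM and at 264 and 300 TPM, and their sum was 493 and 564 TPM. The transcript ratio of EIF3L to EIF3E was 2.53 times larger in the POH1 siRNA library, at 3.16, and that of EIF3K to EIF3M from 8.01 to 15.3.

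The eIF3 genes outside the ring were level or slightly above the control in TPM as deposited. With the libraries scaled to a median ratio of 1, their log2 differences were -0.08 (EIF3B), -0.06 (EIF3I), 0.06 (EIF3G), -0.16 (EIF3D) and 0.41 (EIF3J). EIF3B, which anchors the WD40 module on the ribosome, was at 299 and 311 TPM. Its partners EIF3I (649 and 683 TPM) and EIF3G (645 and 741 TPM) were the most abundant of the complex. EIF3D, which can itself bind the cap of some messages, was at 281 and 276 TPM. EIF3J, a loosely held subunit near the decoding site, was the only one of these near the limit, at 12.01 and 17.96 TPM (log2 difference of 0.54).

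**Figure D3:**
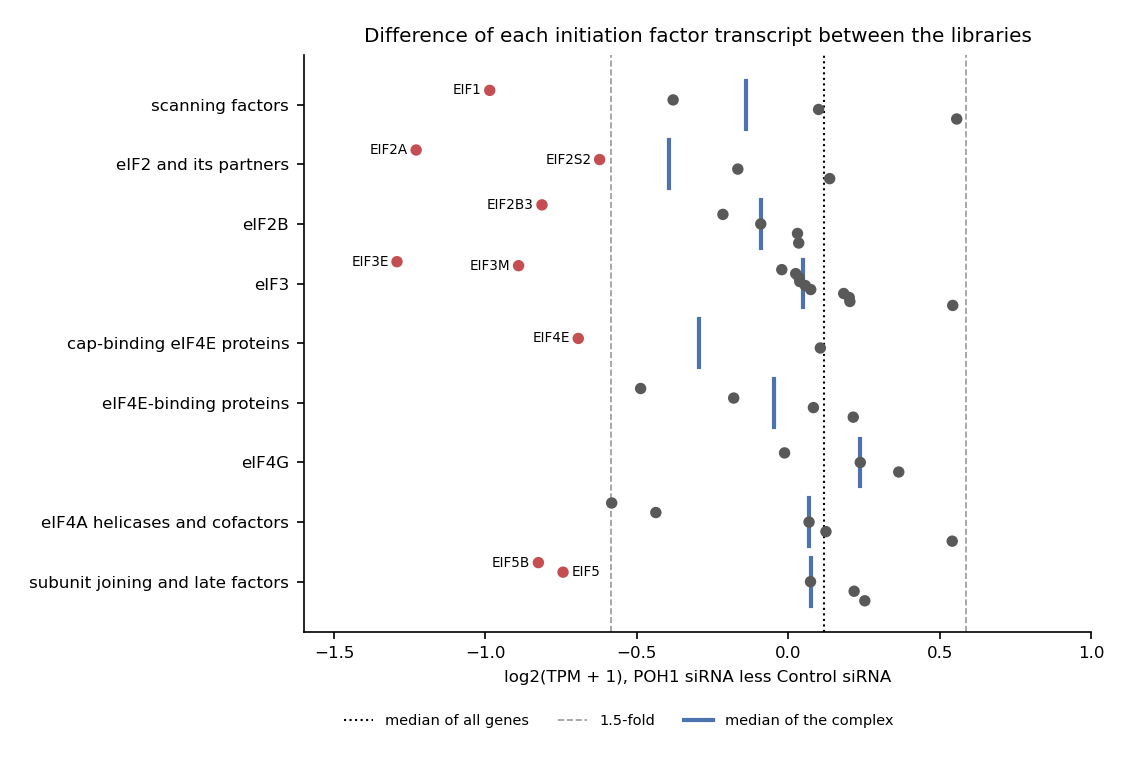
Log2(TPM + 1) in the POH1 siRNA library less that in the control library for each of the 44 genes, 1 point a gene, by group of factors; red points with names are at least 1.5-fold lower, blue bars are group medians, the dotted line is the median of all genes (0.12) and dashed lines mark 1.5-fold. In eIF3 and eIF2B most points gather near 0 with 1 or 2 subunits far to the left.

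At the cap, the main binding protein and its partners differed in level by far. EIF4E was at 10.0 and 5.83 TPM, 1.72-fold lower. EIF4E2, which binds caps but not eIF4G and acts in repression, was at 123 and 132 TPM. EIF4E3 (0.995 and 0.735 TPM) and EIF4E1B, listed at 0 in both libraries, were under the filter. EIF4E stayed 1.5-fold lower with a pseudocount of 0.1 TPM but not with 5 TPM (-0.47), as it was one of the less abundant members.

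The eIF4E-binding proteins hold eIF4E away from eIF4G when they are not phosphorylated. EIF4EBP1, the most abundant of them, was at 219 and 232 TPM, and its transcript ratio to EIF4E was 21.8 in the control library and 39.8 in the POH1 siRNA library. EIF4EBP2 was at 24.9995 and 17.5 TPM (log2 difference of -0.49). EIF4ENIF1, the transport protein that carries eIF4E into the nucleus and to processing bodies, was at 16.2 and 14.2 TPM. EIF4EBP3 was at 0.960 and 1.27 TPM; it shares exons with the read-through gene ANKHD1-EIF4EBP3, at 35.7 and 47.4 TPM, and its value is uncertain.

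None of the 3 eIF4G scaffold genes reached 1.5-fold. EIF4G1, the main scaffold, was level at 373 and 370 TPM. EIF4G2, a homologue without the eIF4E-binding region, was at 160 and 189 TPM, and EIF4G3 was at 18.1 and 23.6 TPM.

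The eIF4A helicases unwind the leader of the message. EIF4A1 was at 412 and 275 TPM, a log2 difference of -0.58 that lay just inside 1.5-fold. EIF4A1 shares 1586 exon bases on the same strand with the read-through gene SENP3-EIF4A1, which was at 41.2 and 154 TPM. The sum of the pair was 453 and 429 TPM, a log2 difference of -0.08, so that the sum was nearly level. EIF4A2, its paralogue, was at 104 and 76.7 TPM. EIF4A3, which belongs to the exon junction complex rather than to initiation, was at 164 and 172 TPM. Of the proteins that stimulate the helicase, EIF4B was at 105 and 153 TPM (log2 difference of 0.54) and EIF4H at 270 and 294 TPM. EIF4B overlaps the antisense gene TNS2-AS1, at 12.5 and 4.99 TPM.

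At the last steps the lower genes were the pair that acts in sequence on the start codon. EIF5, which encodes the GTPase-activating protein of eIF2, was 1.71-fold lower, at 30.8 and 18.0 TPM. EIF5B, the GTPase that joins the large subunit, was 1.81-fold lower, at 38.4 and 21.2 TPM; it overlaps REV1 on the opposite strand, at 13.2 and 16.8 TPM. The abundant genes of this group were not lower. EIF5A, the hypusine-carrying factor that also acts in elongation, was at 703 and 837 TPM, and EIF6, which keeps large subunits from joining too early, at 507 and 533 TPM. EIF5A2 was at 1.06 and 1.40 TPM, and EIF5AL1, a copy of EIF5A under the filter, at 0.810 and 0.932 TPM.

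The promoters of the lower genes, whose shared direction is set by the 1.5-fold limit that grouped them, were read for short motifs. The RefSeq table for GRCh38.p14 held 37 of the 44 genes by symbol, in 50 windows of 300 bases (250 before the annotated start and 50 after it). Of the 9 lower genes it held 7, in 8 windows, and not EIF3E and EIF2S2. Both strands were searched for 5 motifs. CCAAT (the CCAAT box) was in 6 of 8 windows of the lower genes, in 12 of 42 windows of the other members and in 34.6% of all 35116 windows. The 42 windows belong to 30 genes, and overlapping windows of EIF5A hold the same CCAAT match, so windows are not separate genes. CACGTG (the E-box) was in 2 of 8 and 8 of 42 windows, against 7.26% of all. CGGAAG (the ETS core) was in 2 of 8 and 16 of 42, against 19.5% of all. TATAAA was in none of the 8 and 2 of the 42, against 11.5% of all. TGATGNAA, an ATF4-type element, was in none of the 50 windows, against 3.62% of all. In EIF1 a CCAAT on one strand overlaps one on the other; the motifs in the printed windows do not overlap each other. These are matches of letters and not measured binding sites, and the motifs were chosen with the differences known.

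To show where these letters lie, the 120 bases before the annotated start are printed for 4 lower genes, 5′ to 3′ on the strand of the gene, with matches to the CCAAT box, the E-box and the ETS core on either strand in capitals. Coordinates are GRCh38.p14 from RefSeq, not the hg19 build named for the deposited values. The windows are EIF2A at chr3:150546667-150546786 on the plus strand, EIF3M at chr11:32583711-32583830 on the plus strand, EIF4E at chr4:98929134-98929253 on the minus strand and EIF5 at chr14:103334117-103334236 on the plus strand.
EIF2A: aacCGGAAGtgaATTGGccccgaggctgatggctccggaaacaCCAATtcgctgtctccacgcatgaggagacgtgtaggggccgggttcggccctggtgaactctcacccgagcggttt
EIF3M: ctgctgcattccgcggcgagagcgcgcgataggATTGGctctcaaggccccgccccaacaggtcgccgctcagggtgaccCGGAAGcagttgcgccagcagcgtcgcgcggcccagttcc
EIF4E: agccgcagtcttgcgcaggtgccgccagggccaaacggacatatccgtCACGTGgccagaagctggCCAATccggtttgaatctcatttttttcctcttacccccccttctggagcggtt
EIF5: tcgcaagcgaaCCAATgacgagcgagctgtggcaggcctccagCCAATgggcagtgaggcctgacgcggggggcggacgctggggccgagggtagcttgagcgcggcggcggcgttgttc

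In each of these windows a CCAAT match lies between 54 and 109 bases before the start, a range taken from the printed windows themselves. It is not particular to lower genes. Of members within 1.5-fold, EIF4A1 (62 bases before the start), EIF4G2 (87) and EIF2B4 (105) also have a match there. That range does not hold for the lower genes whose windows are not printed. EIF2B3 has a CCAAT match 15 bases before the start, EIF1 has matches 123 and 120 bases before it, and EIF5B has none. EIF5 has a further annotated start, whose window holds none of the 5 motifs.

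Other genes of initiation, whose symbols do not start with EIF, were taken from a list of 34, all above the filter. Of these, 2 (5.88%) were 1.5-fold lower and none was higher, with a median log2 difference of 0.09, near that of all genes. AKT1S1, which encodes the mTORC1 inhibitor PRAS40, was 1.94-fold lower, at 175 and 90.1 TPM, and its transcripts had a GC content of 64.3%. DDX6, a helicase of repressed messages that binds the partner of eIF4E in processing bodies, was 1.80-fold lower, at 15.1 and 8.41 TPM, with a GC content of 41.8%. Next in size, and within 1.5-fold, were MCTS1, which acts in reinitiation (45.4 and 30.5 TPM), and RPTOR, the mTORC1 subunit that recruits eIF4E-binding proteins (22.4 and 33.4 TPM). The kinase gene MTOR was at 37.3 and 39.2 TPM and the poly(A)-binding protein gene PABPC1, which contacts eIF4G, at 795 and 827 TPM; both were chosen after their values were seen.

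**Figure D4:**
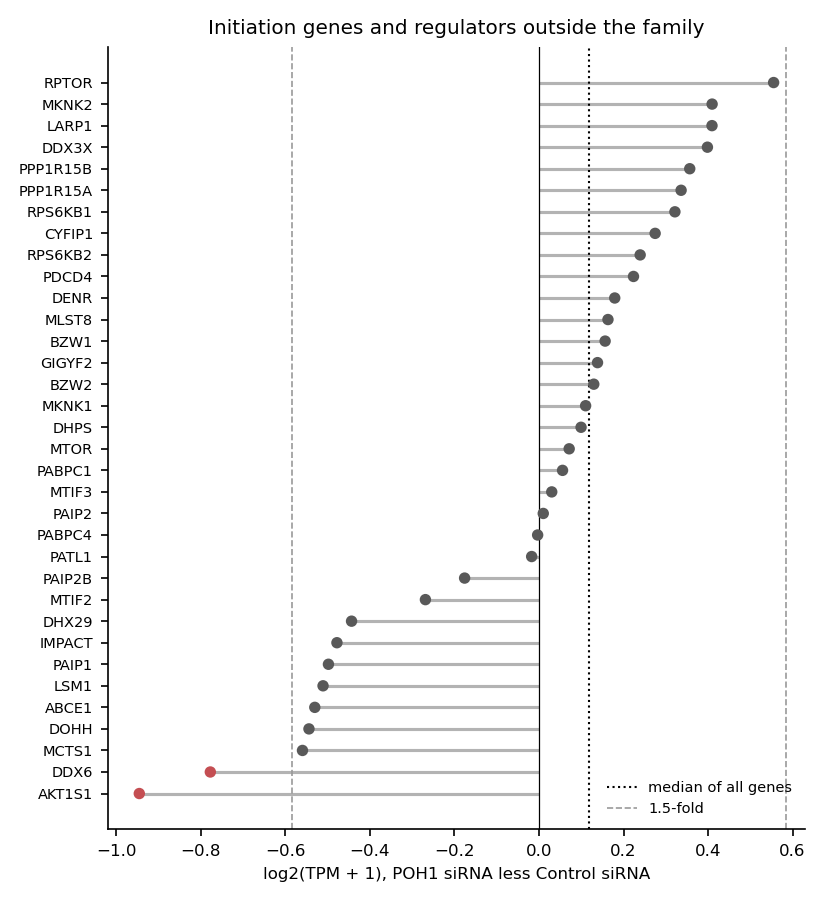
Log2(TPM + 1) in the POH1 siRNA library less that in the control library for 34 initiation genes and regulators outside the family, 1 line a gene; the dotted line is the median of all genes (0.12) and dashed lines mark 1.5-fold. Only AKT1S1 and DDX6, in red, lie beyond 1.5-fold, both lower.

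A few lower genes among many level ones were also seen in the other parts of the translation apparatus. Of 84 cytosolic ribosomal protein genes and paralogues above the filter, 15 (17.9%) were 1.5-fold lower and 1 (1.19%) was higher, with a median of -0.05. Among all genes 8.88% were lower and 10.2% higher. The higher gene was RPL23, at 434 and 851 TPM, with a GC content of 45.7%. The largest differences of the list were those of RPL39 (653 and 121 TPM), RPS3A (476 and 110 TPM), RPL21 (658 and 215 TPM) and RPL7 (1174 and 391 TPM). Their transcripts had GC contents of 43.9%, 43.3%, 44.9% and 43.3% in that order. Of 11 elongation and release factors, 3 (27.3%) were lower, a larger share than that of all genes, and none was higher, with a median of 0.03. The 3 lower genes were the release factor gene GSPT1 (62.4 and 27.3 TPM), the exchange factor gene EEF1B2 (479 and 235 TPM) and EEF1E1 (21.1 and 13.0 TPM). Their GC contents were 41.9%, 48.7% and 40.6%. EEF1G, the next in size, was at 1241 and 1679 TPM. No test of a difference between these groups and the initiation factors was possible with 1 library per group.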

How the data were processed

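Libraries were made from total RNA with an mRNA library kit, per the labels' protocols. The submitters' processing notes name CASAVA, HISAT2 and the build hg19. The sources used here do not give versions, the annotation, the quantification tool or the use of strand. The authors deposited TPM per Ensembl gene, and the columns summed to 999955 and 999968. Symbols were matched by identifier for 57392 of 58174 genes. GENCODE release 29 gave gene types, exon overlap, and GC content as the median over a gene's transcripts.

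Differences were taken of log2(TPM + 1) with Python 3.11.15 and pandas 2.3.3, over genes that averaged at least 1 TPM over both libraries. Genes were counted at 1.5-fold, with no test. Calculations were tested on simulated data with a pseudocount smaller than the 1 TPM used here, so the effect of that pseudocount was not tested there. The members and lists were chosen with earlier results of these data known. Every member above the filter is named, as are, of each other list, the 4 genes with the largest difference and every initiation gene past 1.5-fold.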

Additional observations from a re-analysis of the deposited data

How the results depend on the processing

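The 9 lower genes were the same with a pseudocount of 0.1 TPM, no filter or a filter at 5 TPM. Among all genes 11.8%, 3.01% and 8.45% were lower in that order. The 9 were also the same with values summed with named pseudogenes and copies. So they were with overlapping genes on the same strand summed, an alternative added after seeing the data. All 9 averaged more than 5 TPM, so neither change of filter could remove one. None shares same-strand exons with another gene above the filter, so that sum left their values as they were. With a pseudocount of 5 TPM there were 8, all but EIF4E, against 4.45% of all genes. Scaling to a median ratio of 1 (a shift of 0.14 on the log2 scale) or by a trimmed mean (0.13) gave 11 lower genes, the same 9 with EIF4A1 and EIF4EBP2, against 12.3% and 11.99% of all genes, and moved the family median from 0.03 to -0.10 and -0.090, so differences between 0 and that shift change sign. Leaving out mitochondrial and the 50 most abundant genes gave 10, with EIF4A1, against 11.4% of all genes. The GC adjustment gave 4 lower and 3 higher, against 5.86% and 11.1% of all genes. With the limit at a 25% higher level in either library, 4 genes were higher and 13 lower, against 28.7% and 18.2% of all genes, and at 2-fold 0 and 2, against 2.15% and 2.93%. With a pseudocount of 0.1 TPM 1 was higher, EIF1AX, against 14.0% of all genes.

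Of the 34 initiation genes outside the family, 4 were lower with a pseudocount of 0.1 TPM and 7 under each of the median and trimmed mean scalings. Without the most abundant genes 5 were lower, at the 25% limit 9 and at 2-fold 0. The shares of all genes lower under these settings were 11.8%, 12.3%, 11.99%, 11.4%, 18.2% and 2.93% in that order. With GC adjustment 4 were higher, and 6 at the 25% limit, against 11.1% and 28.7% of all genes. Another threshold or scaling alters the counts by construction; for the other changes, GC adjustment included, the cause was not tested. No library could be left out, and read depth is unknown. No paired analysis was possible because each group held 1 library.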

Other observations

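Named pseudogenes of the family were mostly silent. Of 77 on chromosomes other than Y, 6 had a mean of 1 TPM or more. EIF2S2P4, at 5.34 and 3.26 TPM, and EIF4A1P10, at 4.04 and 2.60 TPM, were lower in the POH1 siRNA library, as were EIF2S2 and EIF4A1. EIF4HP1 (6.58 and 9.70 TPM), EIF5AP4 (1.38 and 2.25 TPM) and EIF4BP7 (1.00 and 1.26 TPM) were above the control, as were EIF4H, EIF5A and EIF4B. EIF4HP2, at 1.64 and 1.17 TPM, was not. Reads of a gene and its processed copies cannot be told apart with certainty, and whether the pseudogenes are transcribed was not tested.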
